A study of Mus musculus with 27 samples.

Results

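The Id and Smad genes examined here were a set of 10 genes chosen by symbol, namely Id1, Id2, Id3, Id4, Smad1, Smad3, Smad5, Smad6, Smad7 and Smad9, out of 37991 genes quantified in each file. All 10 were found in all 27 files. The files came from cells of the neonatal mouse calvaria, the flat bone of the skull vault, taken at 5 to 9 days of age from C57BL/6J mice that carry cyan fluorescent protein (CFP) under the Col3.6 promoter, a fragment of the type I collagen promoter. After 4 days in growth medium, cells with CFP were collected by flow sorting and cultured with ascorbic acid, β-glycerol phosphate and 10% fetal bovine serum, all 9 time points alike and with no BMP or TGF-β named among the additions. RNA was taken every other day from day 2 to day 18, and each time point has 3 files. The study describes these as triplicate samples, but they carry 1 barcode in 3 sequencing lanes and their counts for these genes differed by no more than sampling noise, so they were counted here as 1 library. With the 27 files as separate samples instead, more genes were called in all (77.7% by the line). How many animals gave the cells is not given in the sources used here. A day thus has no biological replicate, the SD over lane files covers sequencing and quantification only, and the tests measure the scatter of the 9 libraries around a line or curve in day.

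Bone morphogenetic proteins (BMPs) and transforming growth factor β (TGF-β) signal through receptor kinases that phosphorylate Smad proteins. Smad1, Smad5 and Smad9 carry the BMP signal and Smad3 carries the signal of TGF-β and activin, in each case together with the shared partner Smad4. Smad6 and Smad7 are inhibitory Smads, induced by the pathways that they restrain. The Id proteins are helix-loop-helix proteins without a DNA-binding region, which hold E proteins and related partners away from DNA, and Id1, Id2 and Id3 are textbook targets of BMP signalling. In osteoblasts BMP signalling is known for driving commitment and matrix formation.

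In the NCBIM37 annotation, the build of the files, all 10 are protein-coding genes and their reads were counted over the exons of all annotated transcripts. The Id genes are short: Id1 (ENSMUSG00000042745) lies at chr2:152561987-152563146 on the plus strand, Id2 (ENSMUSG00000020644) at chr12:25778666-25780957 on the minus strand, Id3 (ENSMUSG00000007872) at chr4:135699412-135701670 and Id4 (ENSMUSG00000021379) at chr13:48356796-48359405, both on the plus strand. The Smad genes are longer. Smad1 (ENSMUSG00000031681) lies at chr8:81862294-81923417 on the minus strand, Smad5 (ENSMUSG00000021540) at chr13:56804371-56843738 on the plus strand and Smad9 (ENSMUSG00000027796) at chr3:54559504-54605179 on the plus strand. Smad3 (ENSMUSG00000032402, chr9:63494574-63605801) and Smad6 (ENSMUSG00000036867, chr9:63800953-63869866) lie near each other on the minus strand, and Smad7 (ENSMUSG00000025880) lies on chromosome 18. The annotation gives 5 transcripts for Smad3 and 7 for Smad5, and 1 each for Id2, Id4 and Smad9.

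The stretch just before the start site is shown for the members that shared a low on days 4 to 8, described further on. RefSeq (GRCm38.p6) gave a start site for 8 of the 10 members, without Id1 and Smad7. In the 250 bases before the start, 2 sets of letters were searched on both strands, GGCGCC, a GC-rich motif known from BMP target genes that reads the same on both strands, and CAGAC, which holds the core of the Smad binding element. The sequences run 5′ to 3′ on the strand of the gene, and capitals mark every match on either strand, none of which overlap.

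Id2, chr12:25096093-25096342, minus strand: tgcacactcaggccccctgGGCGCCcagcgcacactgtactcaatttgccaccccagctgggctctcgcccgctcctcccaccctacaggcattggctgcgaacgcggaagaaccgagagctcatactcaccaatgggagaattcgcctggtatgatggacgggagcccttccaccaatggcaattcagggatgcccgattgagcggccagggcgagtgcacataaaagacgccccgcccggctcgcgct
Id3, chr4:136143572-136143821, plus strand: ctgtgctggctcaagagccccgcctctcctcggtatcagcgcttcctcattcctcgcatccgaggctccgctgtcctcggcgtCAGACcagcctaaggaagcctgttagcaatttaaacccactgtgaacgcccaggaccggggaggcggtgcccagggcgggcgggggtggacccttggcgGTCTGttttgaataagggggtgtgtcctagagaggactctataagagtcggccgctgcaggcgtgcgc
Id4, chr13:48260866-48261115, plus strand: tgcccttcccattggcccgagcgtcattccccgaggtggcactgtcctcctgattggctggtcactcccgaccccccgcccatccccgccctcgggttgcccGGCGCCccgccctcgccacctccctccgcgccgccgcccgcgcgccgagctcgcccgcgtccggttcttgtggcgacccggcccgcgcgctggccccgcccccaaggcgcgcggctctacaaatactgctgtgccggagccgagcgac
Smad9, chr3:54755332-54755581, plus strand: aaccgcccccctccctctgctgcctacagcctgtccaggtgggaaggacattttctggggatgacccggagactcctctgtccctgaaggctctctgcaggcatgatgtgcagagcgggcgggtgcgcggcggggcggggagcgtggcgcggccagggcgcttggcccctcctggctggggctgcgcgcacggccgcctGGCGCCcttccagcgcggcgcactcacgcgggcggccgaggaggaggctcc
Smad6, chr9:64022060-64022309, minus strand: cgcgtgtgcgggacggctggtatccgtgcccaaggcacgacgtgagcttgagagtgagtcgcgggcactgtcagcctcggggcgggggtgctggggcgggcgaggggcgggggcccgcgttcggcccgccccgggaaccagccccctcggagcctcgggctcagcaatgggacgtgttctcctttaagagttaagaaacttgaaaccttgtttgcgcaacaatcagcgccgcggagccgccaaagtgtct

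GGCGCC was found once in each of Id2 (bases -231 to -226 from the start), Id4 (-148 to -143) and Smad9 (-51 to -46), and in 1 of 3 start-site windows of Smad5. Among 27025 genes with a window of this length, 9.54% held GGCGCC and 42.1% held CAGAC, and their median GC content was 52.0%. These shares use only the first listed start site of each gene, while all start sites of the members were searched. The GGCGCC match in Smad5 lay outside its first listed window. The windows of the members were richer in G and C, from 60.0% in a window of Smad5 to 75.6% in Id4, which bears on how often a GC-rich motif occurs. CAGAC was found in Id3, at -167 to -163 and at -68 to -64, and in another window of Smad5, also not the first listed. Neither was found in the windows of Smad1, Smad3 and Smad6. These matches describe letters in a window and were not tested as binding sites.

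The files agreed within a day for these genes. The 3 lane counts of each member on each day were compared in 90 chi-square tests, of which 5 gave p under 0.05, and the statistic per degree of freedom was 0.981 over all of them (overall p = 0.558). The summed total per day ranged from 22470195 counts on day 10 to 62009157 on day 12, with a median of 43146793, and the 10 members had 66 to 5661 counts per day. All member counts were whole numbers in 27 of 27 files, as printed there to 2 decimals, so any share of reads divided with another gene was too small to show. Id4 overlaps the antisense transcript A330033J07Rik, which had at most 10 counts on any day. The osteoblast label was met by Col1a1, the main bone collagen gene, at 1526 TPM (transcripts per 1000000, scaled to the upper quartile) on day 2 and 4263 TPM on day 18, and by Bglap, the osteocalcin gene, whose fitted log2 change over the 16 days was 11.27 (SE 1.11, adjusted p = 4.75e-05 from edgeR). Of 7 osteoblast markers 5 were higher with day (Ibsp by 9.55 and Dmp1 by 6.79 on the log2 scale), 0 lower, and Sp7 and Alpl were not called by a straight line (median 2.22). Sp7 went the other way, with 32.3 TPM on day 2, 2.77 TPM on day 8 and 10.6 TPM on day 18. Its fitted log2 change was -1.23 (SE 0.83, adjusted p = 0.233 from edgeR).

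Marker RNA of other cell types also changed over the days, and in whole cultures fewer cells of a type and less RNA per cell cannot be told apart. The sort for CFP, before day 2, was meant to keep pre-osteoblasts only. Proliferation markers were lower with day in 5 of 5 genes (median fitted log2 change -2.63, edgeR), with summed levels of 266 to 315 TPM on days 2 to 6 and 70.8 to 90.2 TPM on days 14 to 18. Monocyte and macrophage markers were higher in 6 of 7 genes (median 5.98, and 24.1 to 61.7 TPM, then 522 to 2014 TPM), as were adipocyte markers in 5 of 5 (median 11.49, and 3.21 to 7.44 TPM, then 188 to 407 TPM). Smooth muscle markers were lower in 4 of 4 genes (median -3.40), with 3031 to 6182 TPM early and 987 to 1131 TPM late. Endothelial cells, in which several of these genes are well known, were represented by 6 markers with summed levels of 3.24 to 4.10 TPM on days 2 to 6 and 8.87 to 12.1 TPM on days 14 to 18. Among them Cldn5 was at 0 on all 9 days and Emcn on 4 days, 3 passed the filter on low counts, 2 of these (Cdh5 and Tek) rose with day and Kdr fell (median 1.91). What part these cells have in the courses of the Id and Smad genes was not tested.

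Levels between genes were compared in TPM, which is per transcript length, after scaling each file to its upper quartile. All 10 members stood at 1 TPM or more on all 9 days, and 6 of them at 5 TPM or more. Id3 was the most abundant, with a mean of 128.6 ± 24.3 TPM (SD over the 9 days). Id2 (35.4 ± 18.2), Id1 (33.6 ± 12.3), Smad5 (33.4 ± 7.72) and Smad3 (25.9 ± 8.41) followed and differed from their neighbours by less than their spread over days. Smad1 averaged 17.8 ± 3.26 TPM. The inhibitory genes Smad7 (7.75 ± 5.83) and Smad6 (6.24 ± 2.91), then Id4 (4.45 ± 1.07) and Smad9 (3.20 ± 1.35), were lower. Neighbours among these differed by less than the larger SD of the pair. The SD over days does not pair genes by day, and on every day the mean of Smad5 was above Smad3 and that of Id4 above Smad9. On some days the gap was within the lane SD, so a fixed order is not shown. On day 10 Smad5 had 35.7 TPM and Smad3 33.1 TPM (lane SD 12.9). On day 2 Id4 had 5.16 TPM (lane SD 0.767) and Smad9 5.01 TPM.

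**Figure D1:**
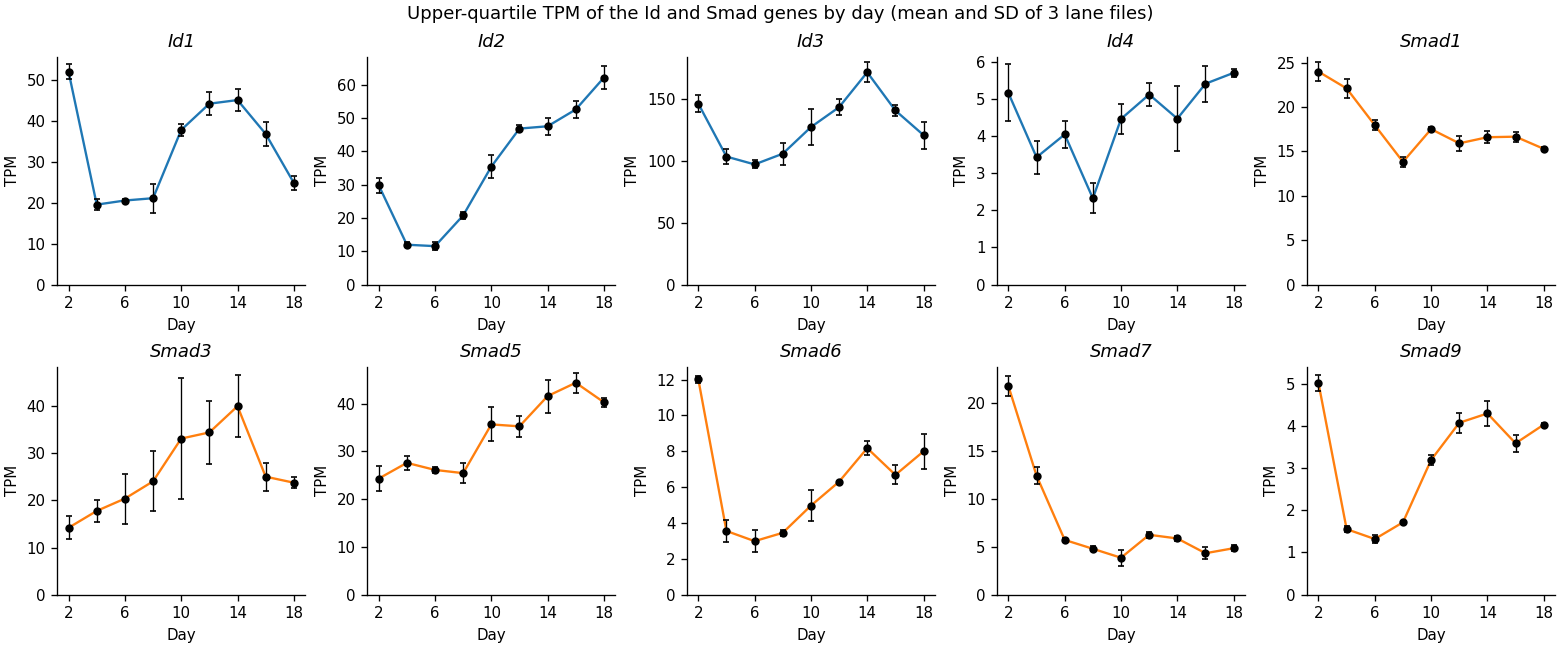
Level of each of the 10 genes in upper-quartile TPM (vertical axes, linear from 0) against day (horizontal axes). Points are means and bars are SDs of the 3 lane files of a day, which is technical spread. Id1, Id2, Id3, Smad6 and Smad9 drop after day 2 and climb again, Smad7 falls from 21.8 TPM and stays low, and Smad3 has wide bars on days 6 to 14.

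Id1, a helix-loop-helix inhibitor and the classical early BMP target, was highest on day 2. Its levels in TPM were 52.1, 19.6, 20.6, 21.2, 37.9, 44.3, 45.2, 36.9 and 24.9 on the 9 days in turn. The low of days 4 to 8 was followed by a broad maximum on days 12 and 14 and a return towards the low by day 18. In counts per 1000000 (CPM, with upper-quartile factors), day 2 was 2.81-fold above day 4 and day 14 was 2.16-fold above day 6 (95% interval 1.91 to 2.44, counting error only). From day 14 to day 18 the level came down to 0.552 of its value (0.491 to 0.620).

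Id2, another Id gene, took the same drop but kept climbing. It had 29.8, 12.0, 11.6, 20.8, 35.4, 46.8, 47.5, 52.6 and 62.1 TPM on the 9 days in turn. Every day from day 10 on was above day 2, and in CPM day 18 was 5.34-fold above day 6 (4.75 to 6.02, counting error only). As a share of the summed TPM of the 4 Id genes, Id2 went from 12.8% on day 2 and 8.65% on day 4 to 29.1% on day 18, while Id1 went from 22.3% to 11.7%. The ratio of Id1 to Id2 was 1.75 on day 2 and 0.401 on day 18.

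Id3, the most abundant Id gene, moved in the same sense over a smaller range. Its levels in TPM were 146.4, 103.6, 97.2, 105.9, 127.4, 143.5, 171.7, 140.8 and 120.9 on the 9 days in turn. In CPM, day 2 was 1.56-fold above day 4, and day 14 was 1.67-fold above day 6 (1.59 to 1.75, counting error only). Id3 held 56.6% to 74.7% of the Id TPM, with the highest share on day 4, when Id1 and Id2 were low.

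Id4, the rarest Id transcript in these cells, rested on 66 counts on day 8 and 253 on day 12. The lowest level was 2.32 TPM, on day 8, the highest 5.70 TPM, on day 18, and day 2 had 5.16 TPM, and its lane SD reached 0.869 TPM. Days 4, 6 and 8 were again the lowest, but by CPM day 14 lay only 1.10-fold above day 6 (0.880 to 1.37, counting error only), which the depth does not separate.

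Among the Smads that carry the BMP signal, Smad9 followed the course of the Id genes. It had 5.01, 1.55, 1.32, 1.71, 3.19, 4.07, 4.29, 3.59 and 4.03 TPM on the 9 days in turn. In CPM, day 2 was 3.39-fold above day 4, and day 14 was 3.22-fold above day 6 (2.74 to 3.81, counting error only). Days 4 to 8 thus lay below all other days, and day 2 was the highest, with day 18 at 0.749 of it in CPM (0.669 to 0.837).

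Smad1 and Smad5, the more abundant BMP Smads, went in opposite directions. Smad1 had 24.0, 22.1, 17.9, 13.8, 17.5, 15.9, 16.6, 16.7 and 15.3 TPM on the 9 days in turn. Smad5 had 24.3, 27.6, 26.1, 25.5, 35.7, 35.3, 41.6, 44.4 and 40.3 TPM on the 9 days in turn. In TPM the pair therefore started level and separated. Of the TPM of Smad1, Smad5 and Smad9 together, Smad1 made up 45.0% and Smad5 45.6% on day 2, against 25.6% and 67.6% on day 18. The effective length of Smad5 ran from 3640 to 4788 bases between files, so these shares also carry its isoform estimates. In CPM, day 18 was 1.35-fold above day 2 for Smad5 (1.29 to 1.42, counting error only) and at 0.592 of day 2 for Smad1. The summed TPM of the 3 genes ranged from 41.0 on day 8 to 64.6 on day 16.

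Smad3, the TGF-β and activin Smad, was read in CPM because its effective length in the files ran from 2008 to 4811 bases between files with different isoform estimates, and the lane SD of its TPM reached 12.9 TPM, 38.9% of the mean. Its CPM was 39.1, 42.8, 50.3, 48.6, 60.1, 64.1, 66.9, 48.2 and 62.2 on the 9 days in turn. The level climbed to day 14, with day 16 lower than its neighbours.

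The inhibitory Smads separated as well. Smad6, which acts mainly on BMP signalling, had 12.0, 3.55, 2.99, 3.45, 4.97, 6.30, 8.18, 6.68 and 8.00 TPM on the 9 days in turn. Smad7, which acts on both BMP and TGF-β signalling, had 21.8, 12.4, 5.71, 4.78, 3.85, 6.24, 5.86, 4.32 and 4.84 TPM on the 9 days in turn. Both fell steeply at first, Smad6 by day 4 and Smad7 by day 6, and Smad6 then climbed while Smad7 stayed low. In CPM, day 2 was 3.55-fold above day 4 for Smad6, and day 14 was 2.63-fold above day 6 (2.26 to 3.08, counting error only). For Smad7 the ratio of day 14 to day 6 was 1.03 (0.920 to 1.15), within counting error, and day 2 was 4.73-fold above day 18. The ratio of Smad6 to Smad7 TPM went from 0.553 on day 2 and 0.286 on day 4 to 1.65 on day 18.

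**Figure D2:**
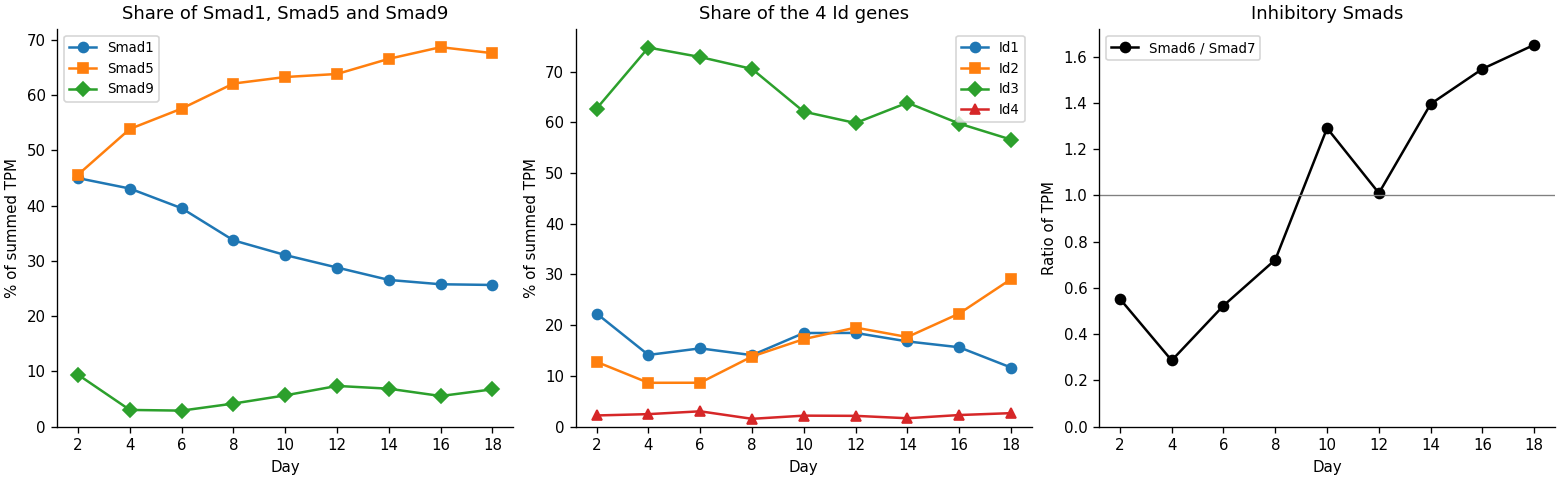
Left, share of Smad1, Smad5 and Smad9 in their summed TPM; middle, share of each Id gene in the summed Id TPM; right, ratio of Smad6 to Smad7 TPM, all against day. Smad1 goes from 45.0% to 25.6% as Smad5 goes from 45.6% to 67.6%, Id2 reaches 29.1% on day 18, and the Smad6 to Smad7 ratio is above 1 from day 10 on.

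A straight line in day was fitted to the summed counts of all 15659 genes that passed the filter on low counts, including all 10 members, with edgeR's quasi-likelihood test. It called 5 of the 10 members at an adjusted p under 0.05, 3 higher and 2 lower with day. Of all genes tested, 54.3% were called, 28.3% higher and 26.1% lower, so the share of members called is near the background. The median fitted log2 change was 0.28 over the members and 0.05 over all genes tested. Log2 changes from the line are slopes over 16 days, not differences between the first and the last library. The slope of Id2 was 1.72 (SE 0.49, adjusted p = 0.0133 from edgeR), while its CPM on day 18 was 0.96 log2 units above day 2. The slope was 0.66 for Smad5 (SE 0.15, adjusted p = 0.00432 from edgeR) and 0.60 for Smad3 (SE 0.19, adjusted p = 0.0218 from edgeR), against 0.43 and 0.67 between day 2 and day 18. It was -1.89 for Smad7 (SE 0.45, adjusted p = 0.00522 from edgeR) and -0.65 for Smad1 (SE 0.18, adjusted p = 0.0111 from edgeR), against -2.24 and -0.76 between these days.

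For the other 5 members the line was not called. The fitted log2 change was -0.05 for Id1 (95% interval -1.16 to 1.07), 0.19 for Id3 (-0.35 to 0.74), 0.36 for Id4 (-0.39 to 1.12), 0.03 for Smad6 (-1.20 to 1.27) and 0.43 for Smad9 (-0.83 to 1.70). The widths include departures of the 9 libraries from a line.

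Several of these calls rested on the library of day 2. Without it, the line over the other 8 days called Id2, Smad5, Smad6 and Smad9, and no longer Smad1, Smad3 and Smad7, and it called 46.3% of all genes tested. Per 16 days, Smad6 then rose by 1.63 on the log2 scale (adjusted p = 0.00152 from edgeR) and Smad9 by 1.93 (adjusted p = 0.00479). Smad7 gave -0.999 (adjusted p = 0.0553), Smad1 -0.46 (0.0835) and Smad3 0.49 (0.107). Over all 20 alternative fits the adjusted p of Id2 ran from 4.13e-06 to 0.0419 and that of Smad5 from 3.69e-08 to 0.0155, so both were called in each. It ran from 0.00152 to 0.987 for Smad6, from 0.00479 to 0.840 for Smad9, from 3.18e-07 to 0.0553 for Smad7, from 8.01e-07 to 0.0835 for Smad1 and from 1.99e-05 to 0.107 for Smad3. Without day 4 Smad3 was also no longer called, and limma on log2 TPM no longer called Smad1.

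**Figure D3:**
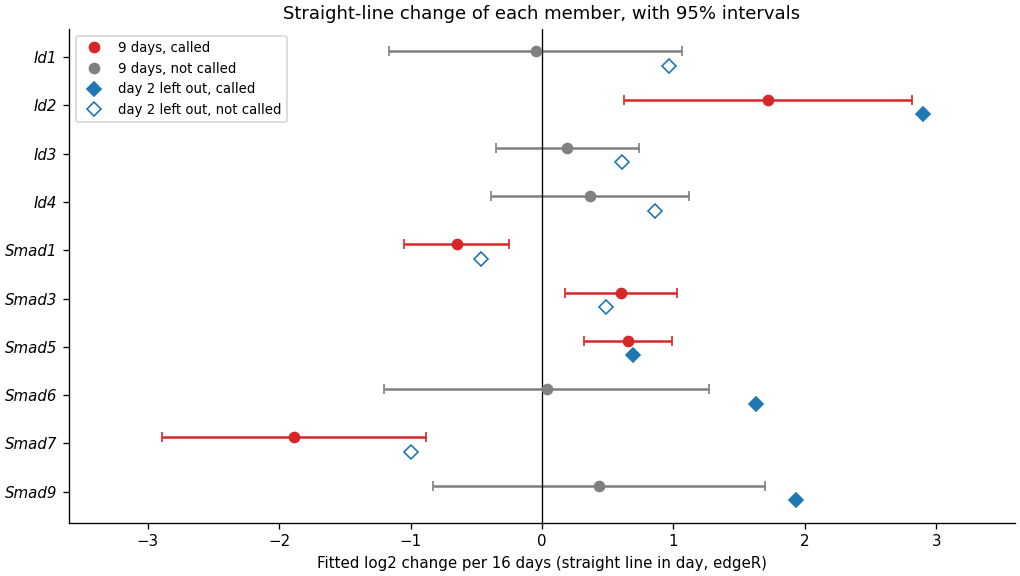
Fitted log2 change per 16 days (horizontal axis) of each gene from the straight line in day. Circles with 95% intervals use all 9 days, and diamonds leave out day 2. Filled diamonds and red circles passed an adjusted p of 0.05. Id2 and Smad5 passed in both fits, Smad6 and Smad9 moved to 1.63 and 1.93 without day 2, and Smad7 moved from -1.89 to -0.999.

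A natural spline (3 degrees of freedom), which can follow a fall and a rise, called 9 of the 10 members, against 57.5% of the 16256 genes tested. Id4 was not called (adjusted p = 0.134 from edgeR). Id1, Id3, Smad6 and Smad9 were called by the spline and not by the line. Their fitted curves spanned 1.26 log2 units for Id1 (adjusted p = 0.00198 from edgeR), 0.68 for Id3 (adjusted p = 0.00279), 1.80 for Smad6 (adjusted p = 0.00123) and 1.64 for Smad9 (adjusted p = 0.00387). Smad7 had the widest span of the members, 2.37 log2 units (adjusted p = 7.09e-07 from edgeR), and Id2 spanned 1.95. The remaining spans were 0.79 for Smad1, 0.68 for Smad3 and 0.61 for Smad5, and the median span was 1.02 over the members and 0.99 over all genes tested. A spline with 2 degrees of freedom called 5 members, losing Id1, Id3, Smad6 and Smad9, against 56.7% of all genes, so that the share of members called was then near the background. Without day 2 the spline no longer called Smad1 and Smad3, and without day 6 it no longer called Smad9 (adjusted p = 0.0985).

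In 6 of the 10 members, Id1, Id2, Id3, Id4, Smad6 and Smad9, the CPM of each of days 4, 6 and 8 was below that of every other day. This pattern was described after the levels had been seen and was given no test. It held in 3.07% of all 15659 genes tested (481 genes). The gap between the lowest other day and the highest of days 4 to 8 was 1.94-fold for Smad9, 1.49-fold for Id2, 1.48-fold for Smad6, 1.13-fold for Id1, 1.10-fold for Id4 and 1.09-fold for Id3. For the last 3 genes the pattern thus rests on a narrow gap. The same 6 members showed it in TPM and with TMM factors. With day 2 left out, so that days 4 to 8 had only to lie below days 10 to 18, 7 members showed it, with Smad5 added, and so did 24% of all genes. Of the other 4 members, Smad5 lay low on days 2 to 8, Smad1 and Smad7 were highest on day 2 and lay low from day 6 on, and Smad3 started low.

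**Figure D4:**
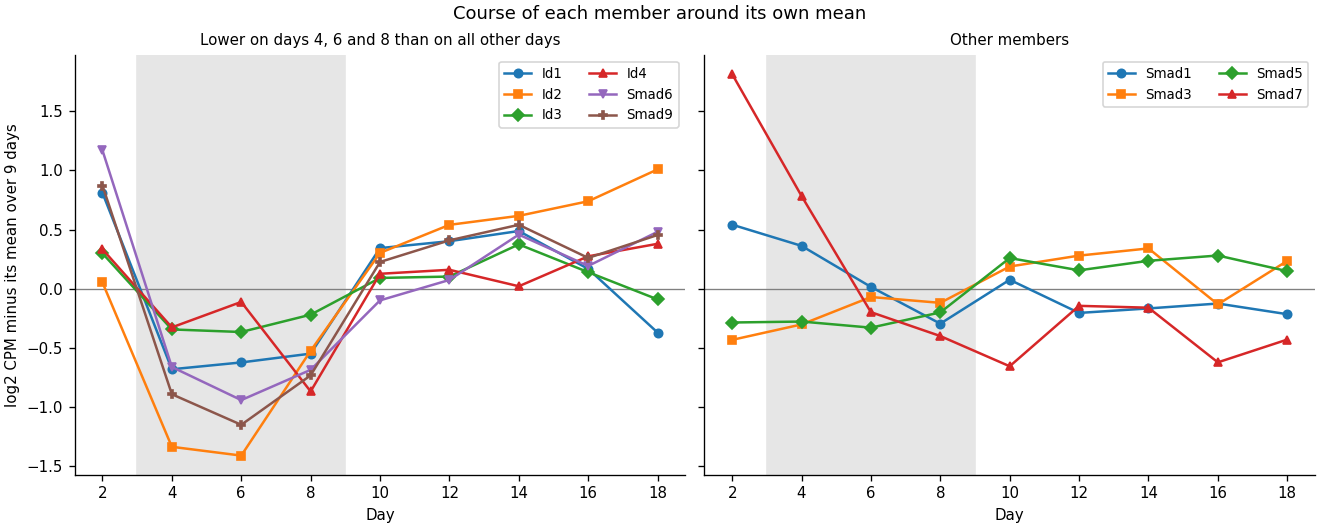
log2 CPM of each gene minus its own mean over the 9 days (vertical axis) against day. Left, the 6 genes whose days 4, 6 and 8 (shaded) lay below every other day; right, the other 4 genes. On the left all curves dip in the shaded days and separate again on day 18, where Id2 is highest and Id1 lowest.

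Between members, the closest courses over the 9 days in log2 CPM were those of Smad6 and Smad9 (Pearson r 0.949) and of Id1 and Id3 (r 0.948). Smad1 went closest with Smad7 (r 0.852), and Smad1 and Smad3 were the most opposed (r -0.710). Among up to 7619 tested genes with a mean of at least 10 TPM, the gene nearest to Smad9 was Atoh8, a helix-loop-helix gene known to respond to BMP (r 0.983), which was also the second nearest to Id3 (r 0.923), after Id1. The nearest to Id2 were Tsc22d1 (r 0.992), Hip1 and the activin antagonist gene Fst (r 0.972). Smad7 lay near Dhx33 (r 0.988) and Wnk1 (r 0.975). Smad6 lay nearest to Sept11 (r 0.980), Myo10 and Cdc42ep3, and Id1 after Id3 to Ints4 (r 0.943) and Erc1. The nearest genes were Taldo1, Gm14584 and Dmtf1 for Smad1, Ubap2l, Phf12 and Bag3 for Smad3, Fam168b, Armcx3 and 4833420G17Rik for Smad5, and Pggt1b, Ctr9 and Rc3h1 for Id4, with r of 0.875 to 0.988. These r describe 9 points that share the same libraries and scaling factors, and among so many genes high values are common.

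Among the ligand genes examined, most BMP family genes rose and activin subunit genes fell. Of 7 BMP ligand genes tested 6 were higher with day and 0 lower (median fitted log2 change 2.20), and Gdf6 was the one not called. Bmp4, the most abundant, had 19.1, 24.3, 30.1 and 48.9 TPM on days 2 to 8 and reached 164 TPM by day 18 (log2 change 3.59, SE 0.45, adjusted p = 0.000147 from edgeR). Bmp3 (log2 change 5.14) and Bmp2 (2.51) stayed at or below 6.59 TPM. Bmp4 RNA increased over days 4 to 8, on which the Id genes were low, and any link was not tested. Among 5 TGF-β and activin ligand genes 1 was higher and 2 were lower: Inhba, which encodes an activin subunit, had 1211 TPM at the start and 204 TPM at the end (log2 change -2.65, adjusted p = 0.000911 from edgeR), Inhbb fell by 5.66 and Tgfb2 rose by 2.02.

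The extracellular antagonists were divided, with 4 of 10 higher, 2 lower and 4 not called (median 0.06). Chrdl1, which binds BMPs, went from 1.23 to 285 TPM (log2 change 8.64, adjusted p = 0.000515 from edgeR), and Chrd rose by 1.86. Of 14 receptor and co-receptor genes 5 were higher, 3 lower and 6 not called (median 0.27). Bmpr2, the type II BMP receptor and the most abundant of them, gave -0.03 (SE 0.13, adjusted p = 0.866 from edgeR), Acvr2a rose by 2.51, and Bmpr1b fell by 4.76 and Acvr2b by 2.63. Acvr2b had little RNA, with 1.00 TPM on day 2, at most 0.580 TPM on the other days and 124 counts in all.

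Inside the cell, 2 of 12 Smad partners and regulators were higher, 4 lower and 6 not called (median -0.17). Smad4, the shared partner, gave 0.11 (SE 0.12, adjusted p = 0.439 from edgeR), and it was looked up outside the naming rule. Smurf1, a ubiquitin ligase for BMP Smads, fell by 1.42 and Skil, a co-repressor that TGF-β induces, fell by 1.36, while Tob1 rose by 1.09. Ski, the most abundant, gave 0.33 (adjusted p = 0.0573). Among 8 basic helix-loop-helix genes that can meet Id proteins, 2 were higher, 2 lower and 4 not called (median 0.08). Tcf4, an E protein gene, went from 32.4 to 123 TPM (log2 change 1.65, adjusted p = 0.00074 from edgeR), Hey1 rose by 2.12 and Scx, a tendon regulator, fell by 2.63.

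Other genes known to be induced by BMP were compared for the low on days 4 to 8 in CPM. Of 11 such genes 6 showed it, namely Atoh8, Dlx3, Dlx5, Hey1, Nog and Runx2, which are named here after their values were seen. Msx1, Msx2, Bambi, Sp7 and Grem1 did not. Grem1 went the other way, with 26.2, 34.1 and 23.6 TPM on days 4 to 8 and at most 17.9 TPM on the other days. Dlx3 and Nog had little RNA on days 4 to 8, at most 0.088 and 0.522 TPM. In TPM Runx2 did not meet the pattern, with 50.2 TPM on day 8 and 46.4 TPM on day 2. For 8 other genes induced by TGF-β the count was 0. With a share of 3.07% over all genes, 8 genes are too few to set this count apart from the background. Of 5 TGF-β and activin ligand genes 1, Tgfb2, showed the low. So did 1 of 12 Smad partners and regulators (Ski), 0 of 7 BMP ligand genes and 0 of 14 receptor and co-receptor genes. Nog was the only 1 of 10 extracellular antagonists with the low, and Hey1 the only 1 of 8 basic helix-loop-helix genes. Among the osteoblast markers 3 of 7 showed it (Runx2, Alpl and Bglap), as did 2 of 5 adipocyte markers (Fabp4 and Pparg), 1 of 7 monocyte and macrophage markers (Csf1r) and 0 of 5 proliferation markers, and the part of these cells in the pattern was not tested. Alpl, the alkaline phosphatase gene of early osteoblasts, had 9.13 TPM on day 2, 0.857, 0.467 and 1.45 TPM on days 4 to 8 and 11.7 TPM on day 10. By the line, 4 of the 11 BMP-induced genes were higher, 1 lower and 6 not called (median 0.33). Atoh8 had 25.1 TPM on day 2, 7.85 on day 6 and 23.5 on day 14, and Hey1 had 1.56, 0.319 and 3.11 TPM on these days. Dlx3 rose by 4.61 but stayed at or below 2.14 TPM, and Runx2, the osteoblast master regulator, rose by 0.49. Msx2, also counted as BMP-induced, took another course, 130 TPM at the start and 12.9 TPM at the end (log2 change -3.99, adjusted p = 5.71e-05 from edgeR). Of the TGF-β-induced genes 5 were lower and 3 not called (median -1.33), among them Ctgf, with 561 TPM on day 2 and 71.1 on day 18 (log2 change -3.06, adjusted p = 0.00494 from edgeR), and Pmepa1 (-1.83). Smad7, an inhibitory Smad induced by the pathways that it restrains, also fell in the first days. In CPM, day 4 was at 0.490 of day 2 for Smad7 and at 0.281 for Smad6, and the cause was not tested.

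**Figure D5:**
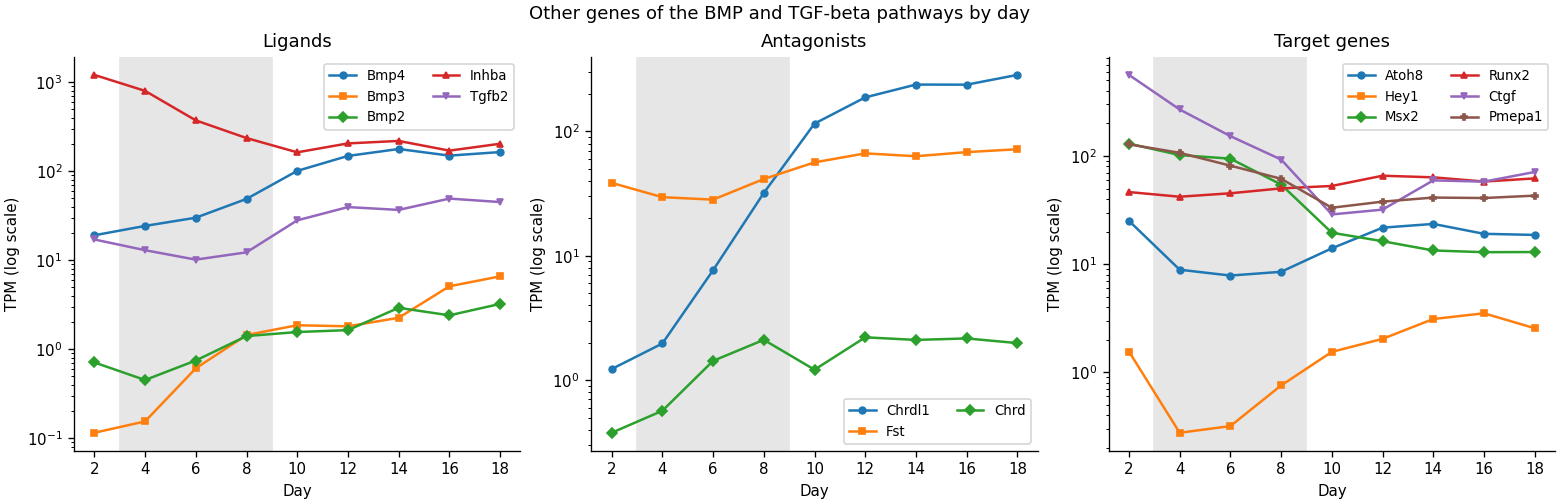
TPM on a log scale (vertical axes) against day for ligands (left), extracellular antagonists (middle) and target genes (right), with days 4 to 8 shaded. Bmp4 rises from 19.1 to 164 TPM as Inhba falls from 1211 to 204 TPM, Chrdl1 rises from 1.23 to 285 TPM, and Atoh8 and Hey1 are low in the shaded days whereas Ctgf and Pmepa1 fall through them.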

How the data were processed

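RNA was measured at 9 time points with 3 files each. The authors amplified the cDNA (NuGEN Ovation), built TruSeq libraries, used Bowtie 0.12.9 for alignment to NCBIM37 transcripts and RSEM for quantification (1.2.8 in the submitters' processing notes). The authors deposited estimated counts per gene (RSEM's expected counts), not normalized. They also deposited TPM, as deposited per effective length and with a sum of 1000000 per file. The FPKM values deposited by the authors were used as an alternative only. Gene symbols and positions came from the GENCODE annotation of NCBIM37, and start-site sequences from RefSeq.

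Here each file's TPM was rescaled so that its 75th percentile among genes above 0 equalled the average percentile of the 27 files, and lane files were averaged per day. Expected counts were summed over the 3 lane files of a day and rounded. edgeR 4.0.16 (R 4.3.3; quasi-likelihood test, upper-quartile factors, genes kept by filterByExpr at a minimum of 10 counts, Benjamini-Hochberg over all genes tested, adjusted p under 0.05) fitted a straight line and a natural spline (3 degrees of freedom) in day, after both had been tested on simulated data. The simulated counts scattered less than these libraries did around a line, so they do not show how the line performs here. Fitted changes are log2 values over 16 days, except for early against late days, which is a difference between groups of days. The lane numbers did not pair files across days, and intervals of folds in CPM are 95% intervals for counting error only. Descriptions were computed in Python 3.11.15 (scipy 1.17.1). Alternatives were TMM factors, DESeq2 1.42.0, limma 3.58.1 on log2(TPM + 0.5), other filters, thresholds and spline, early against late days, the 27 files as separate samples, and each lane or day left out.

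The members and gene lists were chosen with earlier results of these data known. Named were all members, of each list the gene of the highest mean TPM and up to 3 called genes with the largest fitted change, and for each member the 3 genes with the highest Pearson r over days among tested genes of at least 10 TPM. Some genes that this rule names are not reported here. The human data of the study were not used here.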

Additional observations from a re-analysis of the deposited data

How the results depend on the processing

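Of 543 values recomputed under the alternatives, 506 gave the same call and direction, or moved by less than the SD over the 9 days (mean TPM, a wide tolerance) or by up to 1.5 times (counts). The number of members called by the spline was 5 with 2 degrees of freedom, against 9, and the number at the level threshold was 6 with 5 TPM, against 10. The fitted log2 change of Smad6, 0.03 and not called, was -0.015 with TMM factors, -0.015 with DESeq2 and -0.014 with no filter beyond 1 count. It ranged from -0.054 to 0.095 with one lane left out and from -0.22 to 1.63 with one day left out, the highest without day 2. For Id1 the change was -0.05, and it was 0.24 with limma on log2 TPM. Days 14 to 18 were 0.12 log2 units above days 2 to 6, which is a difference between groups of days and not a slope over 16 days. The slope of Id1 ranged from -0.098 to 0.0071 with one lane left out and from -0.34 to 0.97 with one day left out. The causes were not tested. With one day left out, the line called 4 to 5 of the 10 members, against 45.9% to 54.4% of all genes tested, which is near the background. The spline then called 7 to 9 members, against 46.1% to 58.6% of all genes tested.

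With the 27 files as separate samples, which are not independent libraries, the line called 10754 genes (77.7% of those tested) without and 10881 (76.4%) with the replicate block, and 5 members in both, which is below these shares. The spline called 88.7% and 87.8% of genes and then also Id4, with an adjusted p of 0.00134 from edgeR with the replicate block and of 0.000774 without it (0.000774 to 0.447 over all its alternatives). The replicate block changed no other call. Files with the same lane number did not deviate together across days (mean r 0.00789, against -0.00394 for different numbers). Depth limits Id4 most, with 66 counts on day 8, and with 1 library per day a library difference that ran with time cannot be told apart from a change with day.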
